A study of Mus musculus with 5 samples.

Results

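Tubulin genes of mouse hematopoietic stem cells (HSCs) were described after culture with all-trans retinoic acid (ATRA), the active derivative of vitamin A, or with its solvent DMSO. The family was given as 10 gene symbols, 4 of alpha, 5 of beta and 1 of gamma tubulin, and each gene was read from the array feature that named it alone and had the highest mean over all 5 arrays. Of these 10 genes, 9 had such a feature, out of 22180 genes measured this way. Tuba4a did not, since its feature also names Stk16. The treated cells were stem and progenitor cells of C57BL/6 mice cultured for 24 h with 5 µM ATRA, and HSCs were sorted from the culture afterwards (2 arrays). The control cells were kept for 24 h with DMSO and sorted in the same way (3 arrays). Both groups thus share the culture and the sort, no genetic change is named for either, and the labels do not give the age of the mice, the sort markers, or whether replicates came from separate cultures or animals. The p-values therefore cover no more than the scatter of these 5 arrays, part or all of which may be technical, and so few arrays leave every value imprecise.

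Microtubules are hollow polymers of heterodimers of alpha and beta tubulin, and they form the mitotic spindle and the tracks of intracellular transport. Several genes encode near-identical alpha and beta isotypes, which differ mainly in their carboxy-terminal tails and in where they are expressed. Gamma tubulin is not part of the polymer wall but, in a ring complex, the template from which microtubules start at the centrosome and on the spindle. In blood-forming cells, microtubules serve the division of progenitors and, through a beta tubulin of its own, the shape of platelets.

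The values are log2 expression as deposited, so a difference of 1 is a change of 2-fold. A gene is said to have risen or fallen where the Benjamini-Hochberg adjusted p over all 22180 genes was under 0.05 in limma, a linear model with a spread estimate shared across genes. Levels of different features depend on their probes and are not compared between genes.

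The 250 bases before the annotated starts of Tubb5, Tuba1b and Tuba1c are shown. Tubb5 fell. Tuba1b and Tuba1c, which lie near each other on chromosome 15, gave different values, but neither rose or fell and no test compared them. No sequence of Tubg1, which also fell, was used. The sequences are RefSeq promoters of build GRCm38.p6, read 5′ to 3′ on the strand of the gene, at chr17:35838302-35838551 (minus strand) for Tubb5, chr15:98934391-98934640 (minus strand) for Tuba1b and chr15:99029641-99029890 (plus strand) for Tuba1c. Capitals mark matches to the motifs listed after them.
Tubb5: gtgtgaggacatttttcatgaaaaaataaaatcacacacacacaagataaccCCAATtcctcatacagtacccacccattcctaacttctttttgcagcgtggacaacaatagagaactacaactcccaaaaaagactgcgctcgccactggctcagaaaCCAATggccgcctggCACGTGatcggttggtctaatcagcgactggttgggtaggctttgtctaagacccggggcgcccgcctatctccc
Tuba1b: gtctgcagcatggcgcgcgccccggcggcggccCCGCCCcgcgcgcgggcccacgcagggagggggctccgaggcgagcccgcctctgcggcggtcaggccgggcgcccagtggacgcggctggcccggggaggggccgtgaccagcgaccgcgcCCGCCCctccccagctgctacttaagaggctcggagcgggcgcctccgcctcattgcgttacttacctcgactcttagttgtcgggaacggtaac
Tuba1c: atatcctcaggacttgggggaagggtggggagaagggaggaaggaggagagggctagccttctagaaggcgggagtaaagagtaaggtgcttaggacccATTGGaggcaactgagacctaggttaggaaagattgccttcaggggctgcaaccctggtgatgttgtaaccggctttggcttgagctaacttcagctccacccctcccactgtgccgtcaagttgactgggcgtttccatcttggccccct

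Promoters of Tubb2b, Tubb6 and Tubg1 were not searched, so Tubg1, which fell, is missing from the counts below. The motifs were searched on both strands of the promoters of the other 7 of the 10 genes. They were the CCAAT box (CCAAT), bound by the factor NF-Y, the GC box (GGGCGG), bound by Sp1, the E-box CACGTG, bound by MYC and USF proteins, the TATA box (TATAAA), the element TTTGAA of the cell cycle homology region, and the DR5 repeat of retinoic acid receptors in its strictest form. The Tubb5 promoter held CCAAT at 198 and 90 bases and CACGTG at 75 bases before the start. Tuba1b had GC boxes at 217 and 95 bases and Tuba1c a CCAAT box at 151 bases. A CCAAT box was found in 4 of the 7 promoters, against 33.8% of 32851 mouse promoters of the same length, and Tubb4b held 5 of them. A GC box was found in 5 of the 7, against 32.7% of all promoters. Promoters of chromosome 18, where Tubb6 lies, were left out for the 10 genes but not for the 32851. The E-box occurred only in Tubb5 among the 7 (6.02% of all promoters), TATAAA only in Tubb2a (12.4%) and TTTGAA only in Tubb4b (16%). No strict DR5 repeat was found in these windows, and 0.00913% of all promoters held one. In the 7 promoters no match overlapped a match of another motif. A match describes letters and is not a bound site.

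The ATRA arrays spanned a narrower range than the DMSO arrays, with an SD over all features of 1.77 and 1.49 against 1.96 to 1.97, and correlated with each other at 0.73 across features, against 0.966 to 0.978 among DMSO arrays. Genes with high DMSO values had lower ATRA values as a class. Among 1689 genes at DMSO levels between 9 and 11, ATRA replicate 1 had a median of -1.37 relative to DMSO and replicate 2 one of -2.73. Of these genes 55.9% fell, against 1.22% of the 9695 genes at levels between 5 and 7. A second fit had this trend on DMSO level removed by loess. Of the HSC markers, 8 of 10 were measured and 5 fell, against 15.5% of all genes, with a mean over the list of 7.63 and 6.73 in ATRA arrays and 8.75 to 9.08 in DMSO arrays. These 5 calls ended with the level trend removed, where the median of the 8 was -0.51. The stem cell factor receptor gene Kit was at 8.32 and 7.06 in ATRA arrays, against 10.90, 10.97 and 10.96 in DMSO arrays. Among markers of other cells, 1 of 7 megakaryocyte and platelet genes fell (Itga2b), and 1 of 9 neutrophil and monocyte genes (S100a9) and 1 of 7 lymphoid genes (Cd3g) rose, against 6.48% of all genes that rose. These 3 calls ended with the level trend removed, while Pf4, a platelet chemokine gene named after its values were seen, was then higher by 2.03 (adjusted p = 0.0284), against -0.17 as deposited (adjusted p = 0.767). The 4 erythroid genes averaged 6.06 and 6.84 in ATRA arrays and 6.28 to 6.53 in DMSO arrays and did not pass. The lymphoid list averaged 5.79 and 5.88 in ATRA arrays and 4.95 to 5.20 in DMSO arrays, and the neutrophil and monocyte list 6.42 and 6.16 against 5.84 to 6.19. The part of these shifts in the tubulin values was not tested, and fewer cells of a type cannot be told apart from less RNA per cell.

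Of the 9 tubulin genes, 2 fell, Tubb5 and Tubg1, 0 rose and 7 did not pass the test. That is 22.2% called, against 21.9% of all genes called in either direction, 15.5% lower and 6.48% higher, so the share is close to the background. The median difference of the 9 was -0.51, against 0.16 over all genes, and 7 of the 9 differences were negative. With the level trend removed, the median of the 9 was 0.22, and 1 was lower and 0 higher. Of the 9, 4 lay at DMSO levels between 7 and 9, 2 between 9 and 11 and 2 at 11 or more. At these levels 38.6%, 55.9% and 30.2% of all genes fell. Both ATRA values lay below all DMSO values in 4 of the 9 (29.2% of all genes) and above them in 1 (33% of all genes), and the groups overlapped in the other 4. In 3 of the 9 the ATRA arrays lay on opposite sides of the DMSO mean, and in 4 they lay more than 1 apart. Over all genes, 3428 fell and 1437 rose, and 4542 fell and 560 rose after each array was centred on its median. After centring 3 of the 9 tubulin genes fell, with Tubb4b added. The balance over all genes turned with the level trend removed, where 223 were lower and 505 higher, and without ATRA replicate 1, where 6783 were lower and 7424 higher.

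**Figure D1:**
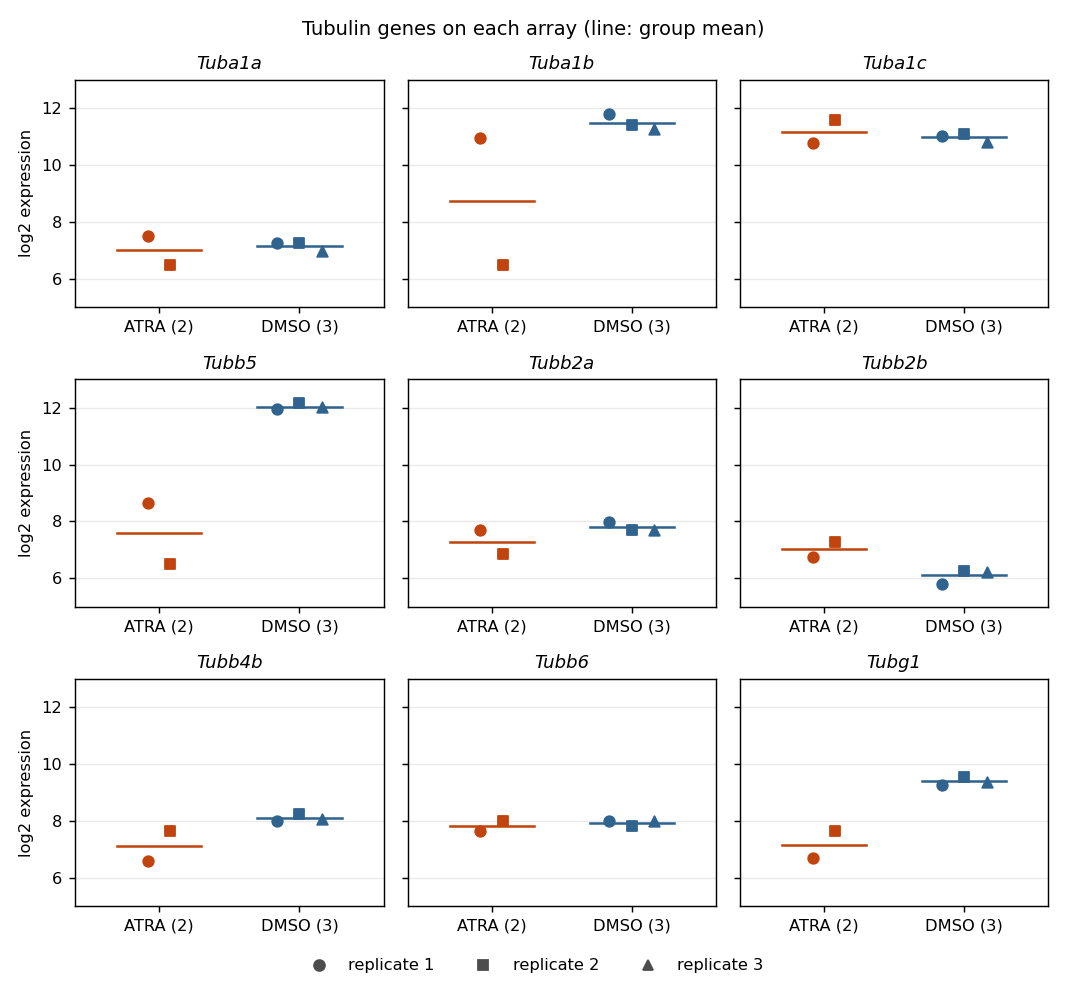
Deposited log2 expression (vertical axis) of 9 tubulin genes on 2 ATRA arrays (left, orange) and 3 DMSO arrays (right, blue), with symbols for replicate numbers and a line at each group mean. Tubb5 and Tubg1 lie lower on both ATRA arrays, Tuba1b on replicate 2 far more than on replicate 1, and Tuba1c lies at the DMSO level. Heights of different genes are not comparable.

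Among the alpha tubulins, no gene passed the test, and the 3 genes of the Tuba1 cluster gave different values in the same RNA. Tuba1b, an alpha tubulin of most dividing cells (feature 17314679), was at 10.96 and 6.49 in ATRA arrays, against 11.80, 11.42 and 11.25 in DMSO arrays. Both ATRA values lay below all DMSO values, but replicate 1 was 0.53 below the DMSO mean and replicate 2 was 5.01 below it. The difference of -2.77 had an SE of 1.37 and did not pass (limma adjusted p = 0.199). With ATRA replicate 1 left out it was -5.01 (adjusted p = 0.00375) and with replicate 2 left out -0.53 (adjusted p = 0.263), so 1 array decides this value. In these and all other fits without an ATRA array, the spread comes from the 3 DMSO arrays alone and is taken to hold for ATRA too. The difference became 0.16 with the level trend removed (adjusted p = 0.901). A second feature, which names Tuba1b together with Gm5620, was at 5.35 and 4.60 in ATRA arrays and at 6.91, 6.53 and 6.35 in DMSO arrays, with both ATRA values lower (difference -1.62, adjusted p = 0.0423 over all features).

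Tuba1c, a further alpha tubulin of the same cluster (feature 17321481), was at 10.77 and 11.57 in ATRA arrays, against 11.03, 11.09 and 10.81 in DMSO arrays. The groups overlapped, replicate 1 being the lowest of the 5 arrays and replicate 2 the highest. The difference was 0.19 (SE 0.28, limma adjusted p = 0.584), and -0.08 after each array was centred on its median. Its second feature was at 10.93 and 10.87 in ATRA arrays and at 10.79, 10.53 and 10.81 in DMSO arrays, a difference of 0.19 as well (adjusted p = 0.389 over all features). Both features thus stayed near their DMSO values, while genes at DMSO levels between 9 and 11 had a median difference of -2.03. With the level trend removed Tuba1c was 2.88 higher in ATRA (SE 0.82), which did not pass (adjusted p = 0.134).

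Tuba1a, the alpha tubulin best known from developing neurons (feature 17314682), was at 7.50 and 6.49 in ATRA arrays, against 7.24, 7.24 and 6.96 in DMSO arrays. The 2 ATRA arrays enclosed all DMSO values, and the difference was -0.15 (SE 0.34, limma adjusted p = 0.724). Its second feature was at 5.30 and 5.82 in ATRA arrays and at 6.13, 5.59 and 5.82 in DMSO arrays, again with overlap. The feature shared by Tuba4a and Stk16 was at 8.13 and 8.94 in ATRA arrays and at 9.50, 9.63 and 9.51 in DMSO arrays, which cannot be assigned to either gene (difference -1.01, adjusted p = 0.0846 over all features). Coding sequences of the alpha tubulins are close to each other, and whether probes of one gene also took up RNA of another was not tested.

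**Figure D2:**
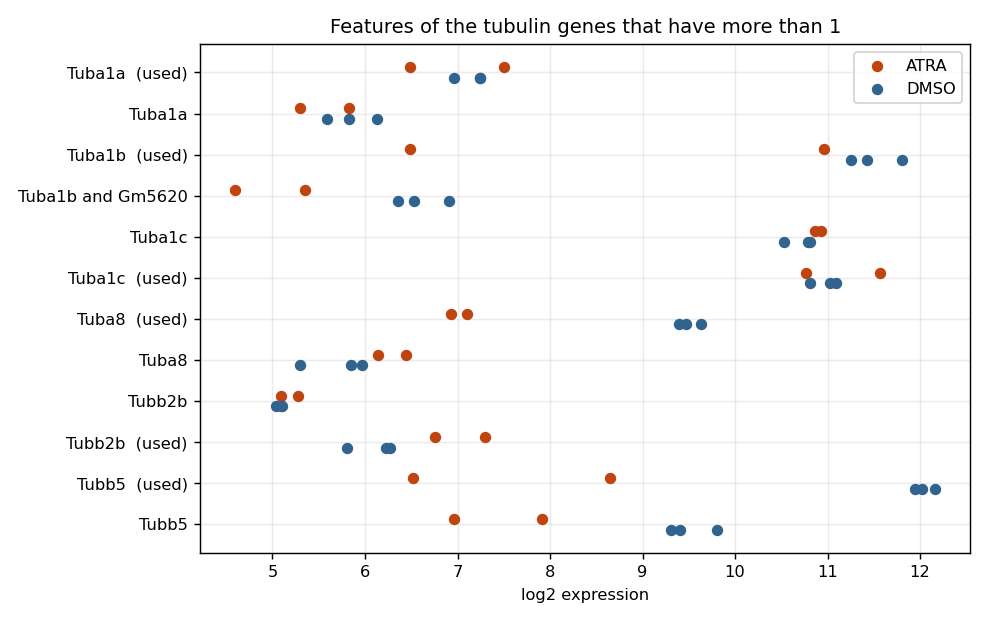
Deposited log2 expression (horizontal axis) of the features of the tubulin genes that have more than 1, for ATRA arrays (orange, upper row of each pair) and DMSO arrays (blue, lower row); the feature taken for a gene is marked as used. Both Tubb5 features are lower in ATRA and both Tuba1c features are near their DMSO values, while the 2 Tuba8 features differ in direction.

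Tubb5, the main beta tubulin of dividing cells, gave the most negative difference of the 9. Its feature (17344444) was at 8.64 and 6.52 in ATRA arrays, against 11.94, 12.17 and 12.02 in DMSO arrays. Both ATRA values lay below all DMSO values, with 3.30 between the nearest of them, and replicate 2 was lower than replicate 1 by 2.12. The mean in DMSO arrays was 12.04 ± 0.11 (SD, n = 3), and Tubb5 fell by 4.46 on the log2 scale (SE 0.66, limma adjusted p = 0.0179), which is 22-fold lower. A second feature of Tubb5 was at 7.92 and 6.96 in ATRA arrays and at 9.30, 9.80 and 9.41 in DMSO arrays, and fell by 2.07 (SE 0.36, adjusted p = 0.0331 over all features). The direction was the same at both features, with a smaller size at the second. That second feature had a DMSO mean of 9.51, and genes at DMSO levels between 9 and 11 had a median difference of -2.03. Its fall was thus close to the median of that level.

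At the feature used, the fall of Tubb5 exceeded the median of genes of similar DMSO level in both ATRA arrays. Relative to the DMSO mean it was at -3.40 in replicate 1 and at -5.52 in replicate 2, where the 179 genes with a DMSO mean of 11 or more had medians of -0.70 and -3.44. Other genes of this level came close to Tubb5, such as Muc13 (DMSO mean 12.03), at -2.84 and -5.49. With the level trend removed by loess of span 0.3, Tubb5 was 1.29 lower (SE 0.21), just past the threshold (adjusted p = 0.0478), but with a span of 0.75, added after seeing the data, it was 0.79 lower and did not pass (adjusted p = 0.0683). Without DMSO replicate 1, 2 or 3, its difference was -4.51, -4.40 and -4.47, and the adjusted p was 0.0976, 0.0929 and 0.0947, as no gene of the table passed limma in these fits (5991, 6065 and 5907 genes at an unadjusted p under 0.05). The call also ended with array weights (adjusted p = 0.0802).

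**Figure D3:**
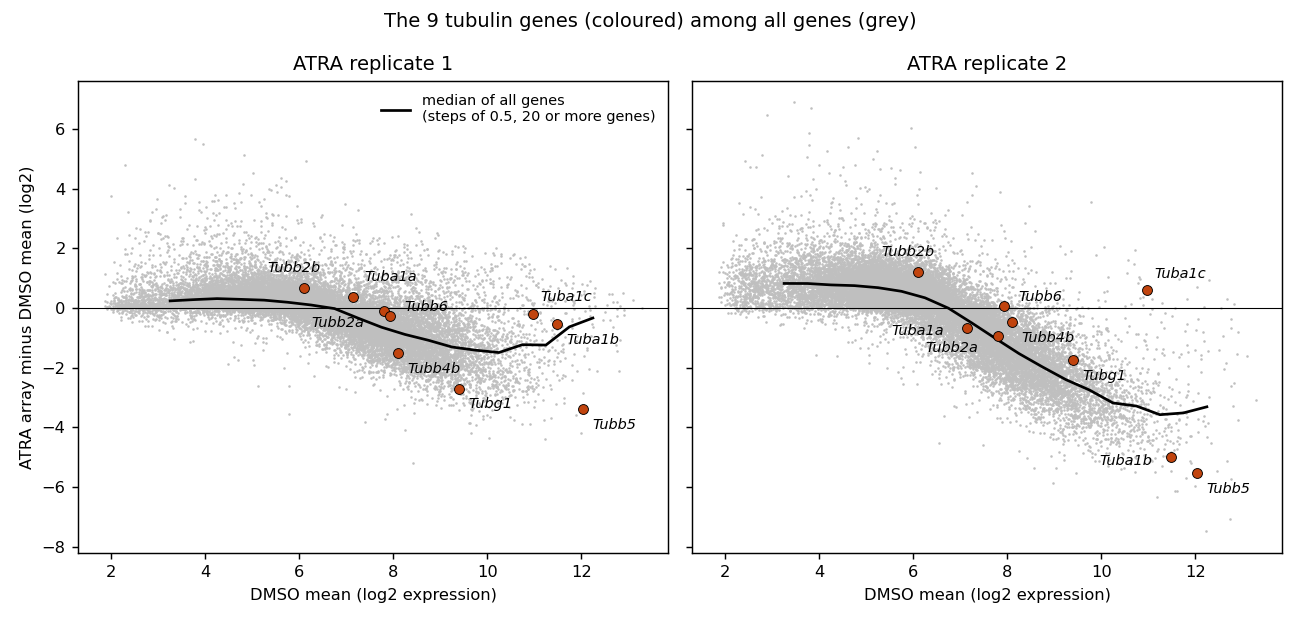
Difference of each ATRA array from the DMSO mean (vertical axis, log2) against the DMSO mean (horizontal axis, log2 expression) for 22180 genes (grey) and 9 tubulin genes (orange), with ATRA replicate 1 on the left and replicate 2 on the right. The black line is the median of all genes by level, and Tubb5 lies below it and Tuba1c above it on both arrays.

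Of the other beta tubulins, no gene passed. Tubb4b, a beta tubulin of most tissues and of cilia (feature 17382423), was at 6.61 and 7.64 in ATRA arrays, against 8.005, 8.24 and 8.07 in DMSO arrays. Both ATRA values were below all DMSO values, by 0.36 at the nearest, and the difference was -0.98 (SE 0.34, limma adjusted p = 0.106). Its difference was -1.5 without ATRA replicate 2 and -0.46 without replicate 1. It passed after centring (-1.25, adjusted p = 0.0462), and became 0.11 with the level trend removed (adjusted p = 0.909).

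Tubb2a, a beta tubulin abundant in neurons (feature 17291767), was at 7.71 and 6.87 in ATRA arrays, against 7.99, 7.71 and 7.71 in DMSO arrays. Replicate 1 lay within the DMSO values and replicate 2 below them (difference -0.51, SE 0.29, limma adjusted p = 0.24). The difference of Tubb2a was -0.93 without ATRA replicate 1 and -0.09 without replicate 2. Tubb2b, which lies near it on chromosome 13, a beta tubulin of the developing brain (feature 17291780), was at 6.76 and 7.29 in ATRA arrays, against 5.80, 6.27 and 6.22 in DMSO arrays. It was the 1 gene of the 9 with both ATRA values above all DMSO values, with a difference of 0.92 (SE 0.25, limma adjusted p = 0.0632). The difference of Tubb2b was 1.19 without ATRA replicate 1 and 0.66 without replicate 2. A second Tubb2b feature gave 5.09 and 5.28 in ATRA arrays and 5.04, 5.09 and 5.10 in DMSO arrays, a difference of 0.11 (adjusted p = 0.578 over all features).

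Tubb6, a widely expressed beta tubulin (feature 17351465), was at 7.66 and 7.995 in ATRA arrays, against 7.995, 7.82 and 7.995 in DMSO arrays. Its values overlapped (difference -0.11, SE 0.16, limma adjusted p = 0.587). ATRA replicate 2 and DMSO replicates 1 and 3 held an identical deposited value. Such repeats occurred in 3 of the 9 tubulin genes, Tubb6, Tuba1a and Tubb2a, and in 47.8% of all genes. Whether they change the spread of these genes was not tested.

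Tubg1, the main gamma tubulin of dividing cells and the core of the ring complex that starts microtubules, fell. Its feature (17256549) was at 6.70 and 7.65 in ATRA arrays, against 9.28, 9.56 and 9.37 in DMSO arrays. Both ATRA values lay at least 1.63 below the DMSO values, and here replicate 1 was the lower of the pair. From a DMSO mean of 9.40 ± 0.14 (SD, n = 3), Tubg1 fell by 2.23 on the log2 scale (SE 0.32, limma adjusted p = 0.0167), or 4.69-fold. The call ended with the level trend removed (difference -0.32, adjusted p = 0.789) and under cyclic loess (-0.86, adjusted p = 0.377), quantile normalization (-1.59, adjusted p = 0.129) and array weights (-2.25, adjusted p = 0.109). It also ended without DMSO replicate 1, 2 or 3 (adjusted p = 0.0896, 0.0908 and 0.0923).

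**Figure D4:**
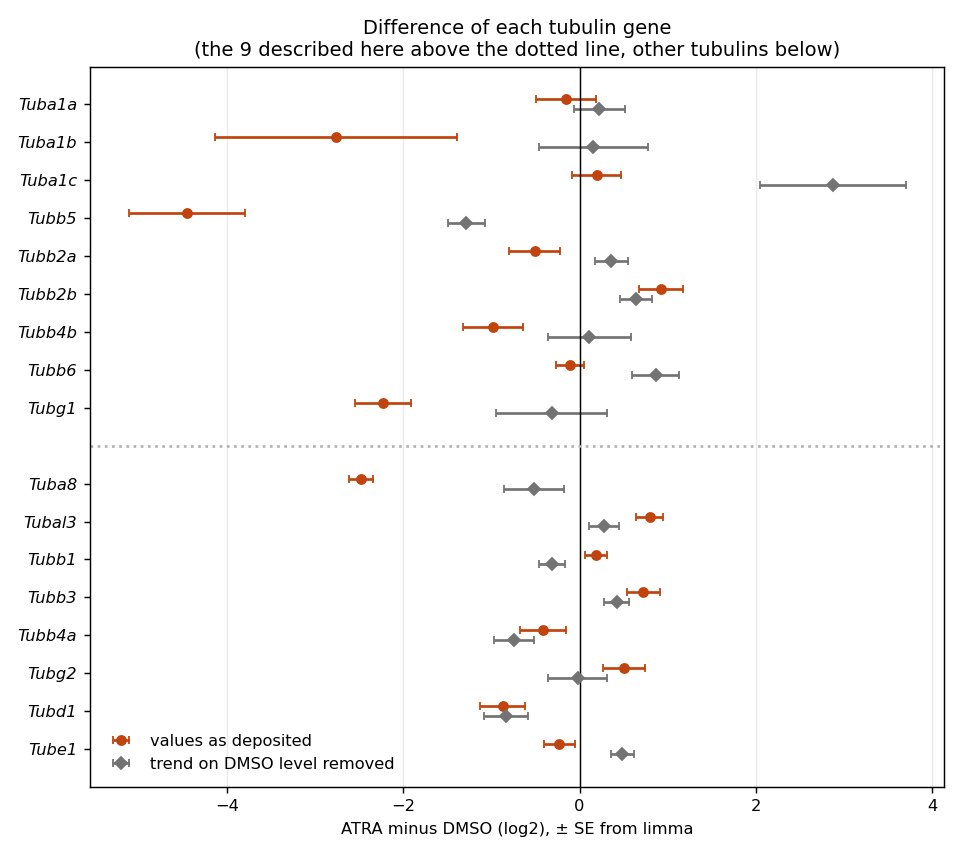
ATRA minus DMSO difference (horizontal axis, log2, with the limma SE as bars) of each tubulin gene, for values as deposited (orange circles) and with the trend on DMSO level removed by loess of span 0.3 (grey diamonds). Tubb5 is at -4.46 as deposited and -1.29 with the trend removed, and Tuba1c at 0.19 and 2.88.

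The other tubulin genes were listed too, and 8 of 10 were measured, as Tuba3a and Tuba3b share their features. Of these, 1 fell, 1 rose and 6 did not pass, a share of 25% called, near the 21.9% of all genes. Tuba8, an alpha tubulin known from heart, muscle and testis, was at 7.10 and 6.93 in ATRA arrays, against 9.46, 9.63 and 9.39 in DMSO arrays. It fell by 2.48 at this feature (SE 0.14, limma adjusted p = 0.00627), but its second feature had higher ATRA values, 6.44 and 6.14 against 5.97, 5.29 and 5.85, a difference of 0.59 that did not pass (adjusted p = 0.199 over all features). The features of Tuba8 thus disagree in direction. Tubal3, an alpha-like tubulin, rose by 0.80 (SE 0.15, adjusted p = 0.0311), with 5.55 and 5.68 in ATRA arrays against 4.71, 4.73 and 5.02 in DMSO arrays.

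Tubb1, the beta tubulin of megakaryocytes and platelets, was at 5.19 and 5.29 in ATRA arrays, against 4.96, 5.14 and 5.07 in DMSO arrays (difference 0.19, limma adjusted p = 0.272). Tubb3, the neuronal beta tubulin, differed by 0.73 (adjusted p = 0.0575, and 0.0486 with dim genes left out). It did not pass after centring (adjusted p = 0.135) or with the level trend removed (adjusted p = 0.174). Without ATRA replicate 1 or 2 its adjusted p was 0.002 and 0.0116, in fits whose spread comes only from DMSO values that lay close together (SD 0.02). Tubb4a, a brain beta tubulin, differed by -0.42 (adjusted p = 0.263). The second gamma tubulin gene, Tubg2, differed by 0.50 (adjusted p = 0.186), with 5.63 and 5.02 in ATRA arrays against 4.94, 4.92 and 4.62 in DMSO arrays, where Tubg1 was lower on both ATRA arrays. The delta and epsilon tubulins of centrioles, Tubd1 and Tube1, differed by -0.87 (adjusted p = 0.0737, and 0.0345 after centring) and -0.23 (adjusted p = 0.336). Tubd1 did not pass with the level trend removed (adjusted p = 0.143). The calls of Tuba8 and Tubal3 ended with the level trend removed (adjusted p = 0.413 and 0.379) and without any 1 of the DMSO arrays, and under cyclic loess (adjusted p = 0.0782 and 0.322) and array weights (adjusted p = 0.097 and 0.459). That of Tubal3 also ended without ATRA replicate 2 (adjusted p = 0.0713), after quantile normalization (0.195) and after centring (0.0714).

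Genes that fold, nucleate, modify and bind tubulin were grouped in 5 further lists. Of the 17 measured genes of the gamma-tubulin ring complex and its recruitment, 11 fell, 0 rose and 6 did not pass, and all 17 differences were negative (median -2.04). That is 64.7% called, against 15.5% of all genes lower, but 13 of the 17 lay at DMSO levels between 7 and 9, where 38.6% of all genes fell, and 4 between 9 and 11, where 55.9% did. Tubgcp2 and Tubgcp3, the ring subunits that bind gamma tubulin, were at 7.02 and 6.20 in ATRA arrays against 9.02 to 9.15 in DMSO arrays, and at 6.77 and 6.01 against 8.44 to 8.56. Both fell, with differences of -2.46 (limma adjusted p = 0.0106) and -2.10 (adjusted p = 0.0125). Haus5, a subunit of the augmin complex that recruits the ring to spindle microtubules, fell by 2.57 (adjusted p = 0.00922), and Cdk5rap2, which anchors the ring at the centrosome, fell by 2.04 (adjusted p = 0.00688). With the level trend removed 2 of the 17 were lower, Tubgcp3 and Haus5 (adjusted p = 0.0483 and 0.0445), 0 were higher, and the median was -0.65.

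Of the 13 measured folding factors, 4 fell, 0 rose and 9 did not pass (median -0.96). That is 30.8% called, all lower, against 21.9% of all genes called and 15.5% lower. At DMSO levels between 7 and 9, where 8 of the 13 lay, 38.6% of all genes fell. The 4 that fell were Pfdn2, a subunit of prefoldin, which hands new tubulin to the chaperonin (-1.33, limma adjusted p = 0.0232), Tbcd and Tbcc, cofactors that join alpha and beta tubulin (-1.59, adjusted p = 0.0236, and -1.13, adjusted p = 0.0486), and Pdcl3, a chaperonin partner (-1.60, adjusted p = 0.0421). With the level trend removed 0 of the 13 were lower (median -0.08), and Pfdn2 was at 0.10 (adjusted p = 0.669). The prefoldin subunit Pfdn6, named after its values were seen, was then higher by 0.84 (adjusted p = 0.0488), against -1.17 as deposited (adjusted p = 0.0769). Of the 4 measured genes of tubulin mRNA autoregulation, a feedback in which free tubulin dimers speed the decay of tubulin mRNA during its translation, 3 fell (75%). All 4 lay at DMSO levels between 7 and 9, where 38.6% of all genes fell, against 15.5% over all levels. Ttc5, which recognises the nascent tubulin chain, was at 6.51 and 6.46 in ATRA arrays, against 7.995, 7.97 and 7.90 in DMSO arrays, and fell by 1.47 (adjusted p = 0.00697). Cnot10 and Cnot11, subunits of the deadenylase complex, fell by 1.84 (adjusted p = 0.0103) and 1.71 (adjusted p = 0.0394), and Scaper, which links Ttc5 to that complex in human cells, differed by -0.29 (adjusted p = 0.337). Of these, Cnot10 alone was lower with the level trend removed (adjusted p = 0.0436).

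Of the 25 measured tubulin-modifying enzymes, 7 fell, 0 rose and 18 did not pass, with a median of -0.16. That is 28% called, all lower, against 21.9% of all genes called and 15.5% lower. At DMSO levels between 7 and 9, where 11 of the 25 lay, 38.6% of all genes fell. A further 9 lay between 5 and 7, where 1.22% fell. Sirt2 and Ttll12 were the 2 between 9 and 11, where 55.9% of all genes fell, with a median difference of -2.03. Ttl, the ligase that adds the terminal tyrosine back to alpha tubulin, fell by 0.89 (limma adjusted p = 0.0172), and Agbl5, a deglutamylase, by 1.73 (adjusted p = 0.0201). Sirt2, a deacetylase of alpha tubulin and other proteins, fell by 2.97 (adjusted p = 0.00876), with 6.27 and 7.10 in ATRA arrays against 9.52, 9.64 and 9.81 in DMSO arrays. Ttll12, a member of the ligase family, fell by 2.73 (adjusted p = 0.0112). Of the 29 microtubule binding and severing proteins, 10 fell, 0 rose and 19 did not pass (median -0.59). That is 34.5% called, all lower, against 21.9% of all genes called and 15.5% lower. Of the 29, 13 lay at DMSO levels between 7 and 9, where 38.6% of all genes fell. Another 5, among them Clasp1, Ckap5 and Tacc1, lay between 9 and 11, where 55.9% fell, and 10 between 5 and 7, where 1.22% fell. The plus-end proteins Clasp1 (-2.58, adjusted p = 0.00767) and Clasp2 (-1.52, adjusted p = 0.0115), the polymerase Ckap5 (-1.96, adjusted p = 0.0102) and its partner family member Tacc1 (-2.68, adjusted p = 0.00665) had the smallest p in the list. No gene of these last 2 lists passed with the level trend removed (median -0.07 and -0.03). The calls of all 5 lists ended without DMSO replicate 1, 2 or 3, as for every gene.

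**Figure D5:**
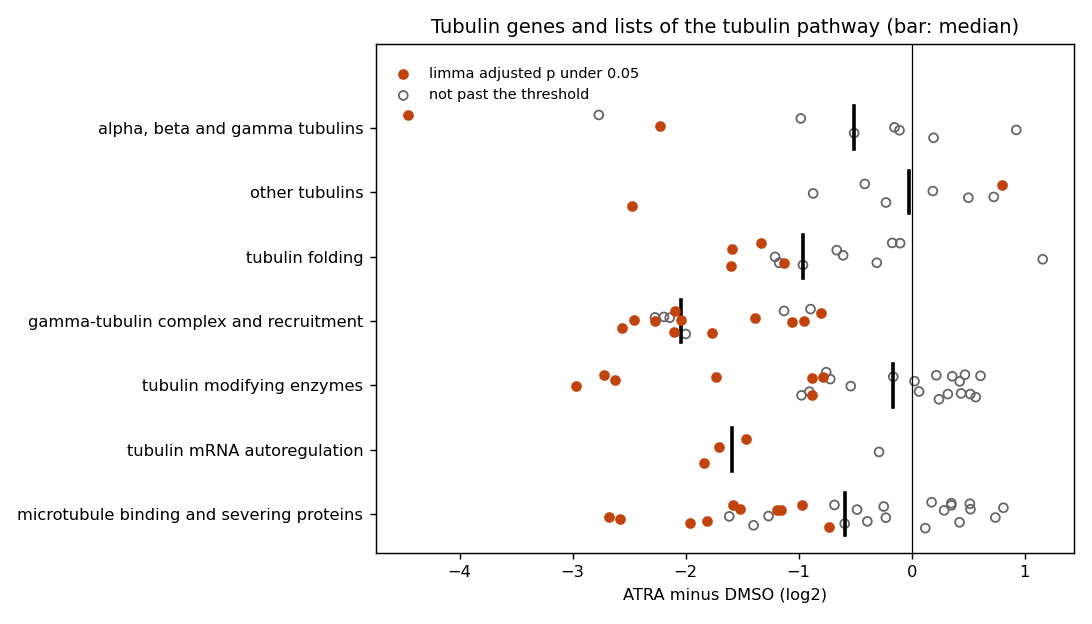
ATRA minus DMSO difference (horizontal axis, log2) of each measured gene in 7 lists, filled where the limma adjusted p was under 0.05 and open where it was not, with a bar at the list's median. The gamma-tubulin complex lies wholly below 0 with a median of -2.04, and the 9 tubulin genes spread between -4.46 and 0.92.

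The genes whose values over the 5 arrays were most like those of Tubb5 were sought by the root mean square distance after each gene was centred on its DMSO mean. The tubulin genes described here and genes with clone or predicted names of the Gm, Rik and LOC kinds were left out of this ranking. The nearest 5 were AU020206 at a distance of 0.26, Ppp1ca, a catalytic subunit of protein phosphatase 1, at 0.29, the mucin gene Muc13 at 0.29, Ilf2, a double-stranded RNA binding protein gene, at 0.37 and Cdkn2aipnl at 0.37 on the log2 scale. Their differences lay between -4.16 and -3.90, against -4.46 for Tubb5. Among the tubulin genes, Tuba1b came nearest to Tubb5 at 1.32, followed by Tubg1 at 1.71, and Tubb2b was farthest at 3.51.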

How the data were processed

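Per the labels' protocols, total RNA of the sorted HSCs came from a PicoPure kit, was treated with DNase and labelled with biotin by in vitro transcription. The authors deposited log2 expression values for 41345 array features on 5 arrays. Per the submitters' processing notes, the tools were limma 3.28.20, oligo 1.36.1 and RMA, whose roles the notes leave unstated. The genome build is not given in the sources used here. Deposited values entered the fit unfiltered.

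Genes come from the platform annotation, whose symbols were brought up to date through gene identifiers. Of 25335 listed features, 23521 named 1 gene and gave 22180 genes, each by its feature with the highest mean, and 1814 named several genes and were not used for a gene. The 2 group means were compared in R 4.3.3 with lmFit and eBayes of limma 3.58.1. Tests were two-sided, and p-values of the 22180 genes were adjusted together (Benjamini-Hochberg). Residual and prior degrees of freedom were 3 and 1.52. Values called "over all features" come from the same fit on 41345 features. The step was tested on simulated data in which both groups had the spread of the DMSO arrays. That simulation does not cover the wider scatter between the ATRA arrays. An exact permutation test of 2 against 3 arrays cannot give a two-sided p below 0.1 and was not used.

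The 10 genes, the lists and the alternatives were chosen with earlier results of these data known. All tubulins are named, and from each other list the 4 genes with the smallest p, past the threshold or not. Sequences were taken from RefSeq (GRCm38.p6) for 7 of the 10 genes, and not for Tubb2b, Tubb6 and Tubg1.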

Additional observations from a re-analysis of the deposited data

How the results depend on the processing

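The directions of Tubb5 and Tubg1 were the same in all 19 alternatives to the fit, 15 planned and 4 added after seeing the data, but their calls were not. Counts of calls, given as genes of the whole table, of the 9 tubulin genes and of the 96 genes of the other lists, were 4865, 2 and 37 in the fit reported. They were 2182, 1 and 17 after quantile normalization, 2275, 1 and 18 under cyclic loess, 728, 1 and 4 once the level trend was taken out, and 755 (205 lower, 550 higher), 0 and 4 with a loess span of 0.75. With array weights they were 0, 0 and 0 (limma, with 4377, 2 and 30 at an unadjusted p under 0.05). With 1 array left out they lay between 0 and 14207, 0 and 5, and 0 and 72. The zeros came without a DMSO array, also where the 1435 genes identical in all DMSO arrays were dropped, and the highest counts without ATRA replicate 1. The cause was not tested.

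With the replicate number as a block the counts were 0, 0 and 0 (limma, with 5412, 3 and 39 at an unadjusted p under 0.05), in a fit that uses up more degrees of freedom. The numbers share no stated culture or day, so they were not taken to pair the samples. Deviations of same-numbered arrays correlated across genes at 0.134 and 0.0983. These values cannot decide on a pairing, since the deviation of either ATRA array is the negative of the other's.

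Scaling moved the median gene by -0.19 (quantile), -0.27 (centring), -0.21 (cyclic loess) and -0.14 (level trend removed). Directions of some genes changed with the scaling, among them Tuba1b at -2.77 and the called Pfdn2 at -1.33 as deposited. With the level trend removed, differences turned to 0.22 for Tuba1a, 0.16 for Tuba1b, 0.36 for Tubb2a, 0.11 for Tubb4b, 0.86 for Tubb6, -0.31 for Tubb1, -0.02 for Tubg2, 0.48 for Tube1, 0.10 for Pfdn2 and 0.31 for Scaper. With a span of 0.75 they were 0.27 for Tuba1a, 0.55 for Tuba1b, 0.35 for Tubb2a, 0.09 for Tubb4b, 0.84 for Tubb6, -0.26 for Tubb1, 0.49 for Tube1, 0.08 for Pfdn2 and 0.33 for Scaper. After cyclic loess they turned to 0.17 for Tuba1a, 0.25 for Tubb2a, 0.88 for Tubb6, -0.33 for Tubb1, -0.02 for Tubg2, 0.45 for Tube1 and 0.24 for Scaper. After quantile normalization they were 0.60 for Tubb6, -0.23 for Tubb1, 0.23 for Tube1 and 0.01 for Scaper, and after centring -0.08 for Tuba1c and -0.08 for Tubb1. With 1 array left out, differences ranged from -0.66 to 0.36 for Tuba1a, from -0.21 to 0.59 for Tuba1c, from -0.28 to 0.06 for Tubb6 and from -0.62 to 0.04 for Scaper, the ends being the fits without ATRA replicate 1 or 2.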
